A study of Mus musculus with 8 samples.

Results

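Transcripts of 10 heat shock chaperone genes were followed in naive B cells from mouse spleens. The genes were Hspa1a, Hspa1b, Hspa8, Hsp90aa1, Hsp90ab1, Hspe1, Hspd1, Hsph1, Dnajb1 and the transcription factor gene Hsf1, taken by symbol from an RNA sequencing table of 23302 entries. All 10 were found, and all 10 were among the 13011 genes tested. The clearest pattern was in the inducible HSP70 pair: the summed level of Hspa1a and Hspa1b was 104-fold lower in tumor than in nontumor libraries of B-EBi3- mice and 316-fold lower in those of WT mice. The constitutive Hspa8 was 1.41-fold and 1.66-fold lower in the same comparisons, and Hsf1 was 1.31-fold and 1.28-fold higher.

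Chaperones bind unfolded or newly made proteins and help them to fold. HSP70 proteins work in cycles of ATP binding and hydrolysis that HSP40 co-chaperones start and nucleotide exchange factors end, and they pass some clients on to HSP90. In mitochondria the HSP60 barrel, encoded by Hspd1, closes around a client with the HSP10 lid, encoded by Hspe1. The factor HSF1 binds arrays of the element nGAAn in heat shock gene promoters, and its targets include the inducible HSP70 genes. In lymphocytes, as in other cells, inducible HSP70 RNA is low at rest and rises quickly on heat or other protein-damaging stress.

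The libraries came from C57BL/6 mice and formed 4 groups of 2: B-EBi3- tumor, B-EBi3- nontumor, WT tumor and WT nontumor. B-EBi3- is the labelled genotype, written BEBi3-/- in the design text, and is read here as loss of Ebi3, which encodes a cytokine subunit. Whether cells other than B cells lack Ebi3 was not assessed. The series concerns pancreatic cancer. How Ebi3 was deleted, how tumors arose, the age of the mice and any pooling of animals are not stated in the labels. Libraries were counted as nontumor where the tumor status reads WT, and every tumor comparison depends on that reading. The labels do not say whether a group's libraries are from different mice, so p-values measure the spread between libraries, which may be technical.

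Depth was 21291892 to 28297319 reads per library. Ebi3 stood at 8.7 and 11 normalized counts in B-EBi3- tumor, 12.8 and 11.5 in B-EBi3- nontumor, 200.9 and 163.6 in WT tumor, and 8.94 and 11 in WT nontumor, so its level separated the genotypes in tumor mice only. The B cell genes Ms4a1, Cd79a and Pax5 were at 2440 normalized counts or more in every library. Ighm and Ighd were looked for but not matched to an entry, so they were not analysed. The WT tumor libraries stood apart: their titles begin with IV and all others with OT, Xist was at 19758 and 26191 normalized counts against at most 18.3 elsewhere, and Eif2s3y, Kdm5d and Uty, which lie on the Y chromosome, had 0 reads. Sex and title prefix thus cannot be told apart from tumor or genotype in the 3 comparisons that use WT tumor, namely WT tumor against WT nontumor, B-EBi3- tumor against WT tumor, and the interaction. Neither differs within B-EBi3- mice or among nontumor mice. B-EBi3- nontumor replicate 1 stood apart for several chaperones, as described first.

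Within B-EBi3- nontumor, replicate 1 held 9.33 times as much Hspa1a as replicate 2, the 11th largest difference between these libraries among 13011 genes. The ratio was 6.7 for Hspa1b, 3.08 for Dnajb1, 2.65 for Hsph1 and 1.29 for Hsp90aa1, against a median of 1.12 over all tested genes. The other members differed by at most 1.06-fold between the same libraries: Hsp90ab1 and Hsf1 by 1.06, Hspa8 and Hspd1 by 1.04 and Hspe1 by 1.01. WT nontumor replicate 1 also exceeded replicate 2, by 1.73-fold for Hspa1a, 1.53-fold for Hspa1b, 1.49-fold for Hsph1 and 1.42-fold for Dnajb1. In nontumor libraries the early response genes Fos and Egr1 were also higher in replicate 1 than in replicate 2. Fos stood at 18972 and 12381 normalized counts in B-EBi3- nontumor and at 14589 and 12293 in WT nontumor. Egr1 stood at 6141 and 3507 in B-EBi3- nontumor and at 4249 and 3261 in WT nontumor. In B-EBi3- tumor Fos, at 10468 and 10264, was below both B-EBi3- nontumor libraries, and Egr1, at 5150 and 5260, lay between them. Their part in the chaperone differences was not tested.

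**Figure D1:**
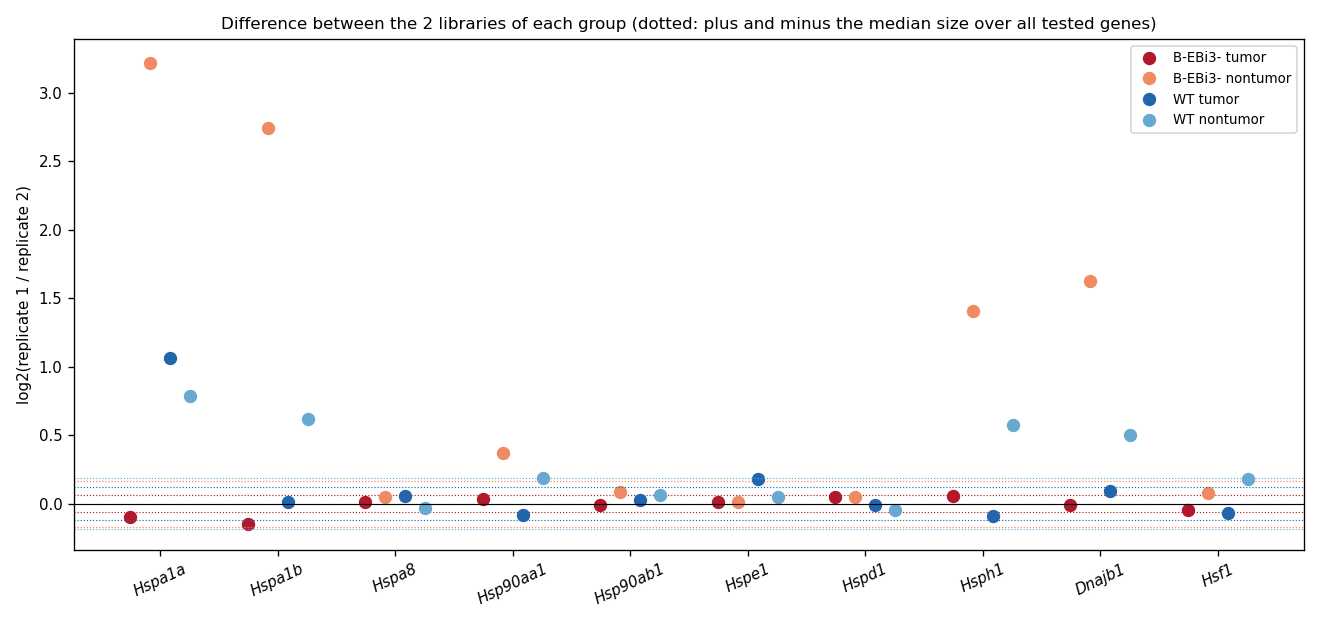
Log2 ratio of replicate 1 to replicate 2 for each chaperone gene (x axis) in each group (colours), with dotted lines at plus and minus the median size of that ratio over all tested genes. Hspa1a, Hspa1b, Hsph1 and Dnajb1 of B-EBi3- nontumor lie between 1.41 and 3.22, and Hspa8, Hspe1, Hspd1 and Hsf1 of that group lie within 0.08 of 0.

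Hspa1a and Hspa1b encode nearly the same inducible HSP70 protein and lie side by side on the minus strand of chromosome 17 (mm10, chr17:34969190-34972156 and chr17:34956436-34959238). Of the 31-base words of the Hspa1a transcript, 63.8% also occur in Hspa1b, and 67.5% the other way round, while none occur in Hspa8, so how reads were split between the pair is uncertain and their sum is the safer value. Their promoters share 296 of 300 bases. The stretch from 150 to 61 bases before the start is shown because both genes carry the same match there to the heat shock element letters GAANNTTC. The match, in capitals, holds 2 units and is not part of a run of 3 (RefSeq, GRCm38.p6, minus strand, chr17:34972217-34972306 for Hspa1a and chr17:34959299-34959388 for Hspa1b).
Hspa1a: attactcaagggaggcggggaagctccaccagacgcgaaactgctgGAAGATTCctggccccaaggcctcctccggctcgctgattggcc
Hspa1b: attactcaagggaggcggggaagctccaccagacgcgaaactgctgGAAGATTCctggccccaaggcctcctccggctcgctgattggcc
The 2 stretches are the same, letter for letter. The letters GAANNTTC or TTCNNGAA, searched on both strands, occur in 15.1% of all 32851 promoter windows of the same length, and in windows of 5 of the 6 members that have one. A run of 3 such units occurs in 0.603% of all windows and in 3 members, Hspe1, Hspd1 and Hsph1. The Dnajb1 windows hold neither.

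Hspa1a had its lowest levels in tumor libraries. It stood at 67 and 71.5 normalized counts in B-EBi3- tumor, against 35480 and 3801 in B-EBi3- nontumor. In WT tumor it stood at 35.7 and 16.5 normalized counts (45 and 21 reads), against 11027 and 6376 in WT nontumor. Every nontumor library was far above every tumor library, whichever genotype is taken, and the groups did not overlap. With 2 libraries per group, lack of overlap can arise by chance. The share of all tested genes without overlap was not counted, here or for the genes below. The log2 difference was -7.37 (SE 0.84, limma adjusted p = 0.000718) in B-EBi3- and -8.37 (SE 0.84, adjusted p = 2.29e-05) in WT.

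Hspa1b behaved in the same way at a higher level. It held 249.6 and 275.9 normalized counts in B-EBi3- tumor, against 59338 and 8859 in B-EBi3- nontumor. WT tumor held 54.0 and 53.5, against 21041 and 13714 in WT nontumor. Again no tumor library came near a nontumor one. On the log2 scale the difference was -6.44 (SE 0.68, adjusted p = 0.000484) in B-EBi3- and -8.28 (SE 0.68, adjusted p = 7.73e-06) in WT.

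Summed, the pair stood at 316.6 and 347.4 normalized counts in B-EBi3- tumor against 94818 and 12660 in B-EBi3- nontumor, and at 89.7 and 70.0 in WT tumor against 32068 and 20090 in WT nontumor. The log2 difference was -6.70 (SE 0.73, adjusted p = 0.000549) in B-EBi3- and -8.31 (SE 0.73, adjusted p = 1.03e-05) in WT. The value in B-EBi3- was -5.25 without the high B-EBi3- nontumor replicate 1 and -8.16 without replicate 2, past the threshold both times. In bulk RNA, fewer cells with the transcript and less of it per cell cannot be told apart.

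**Figure D2:**
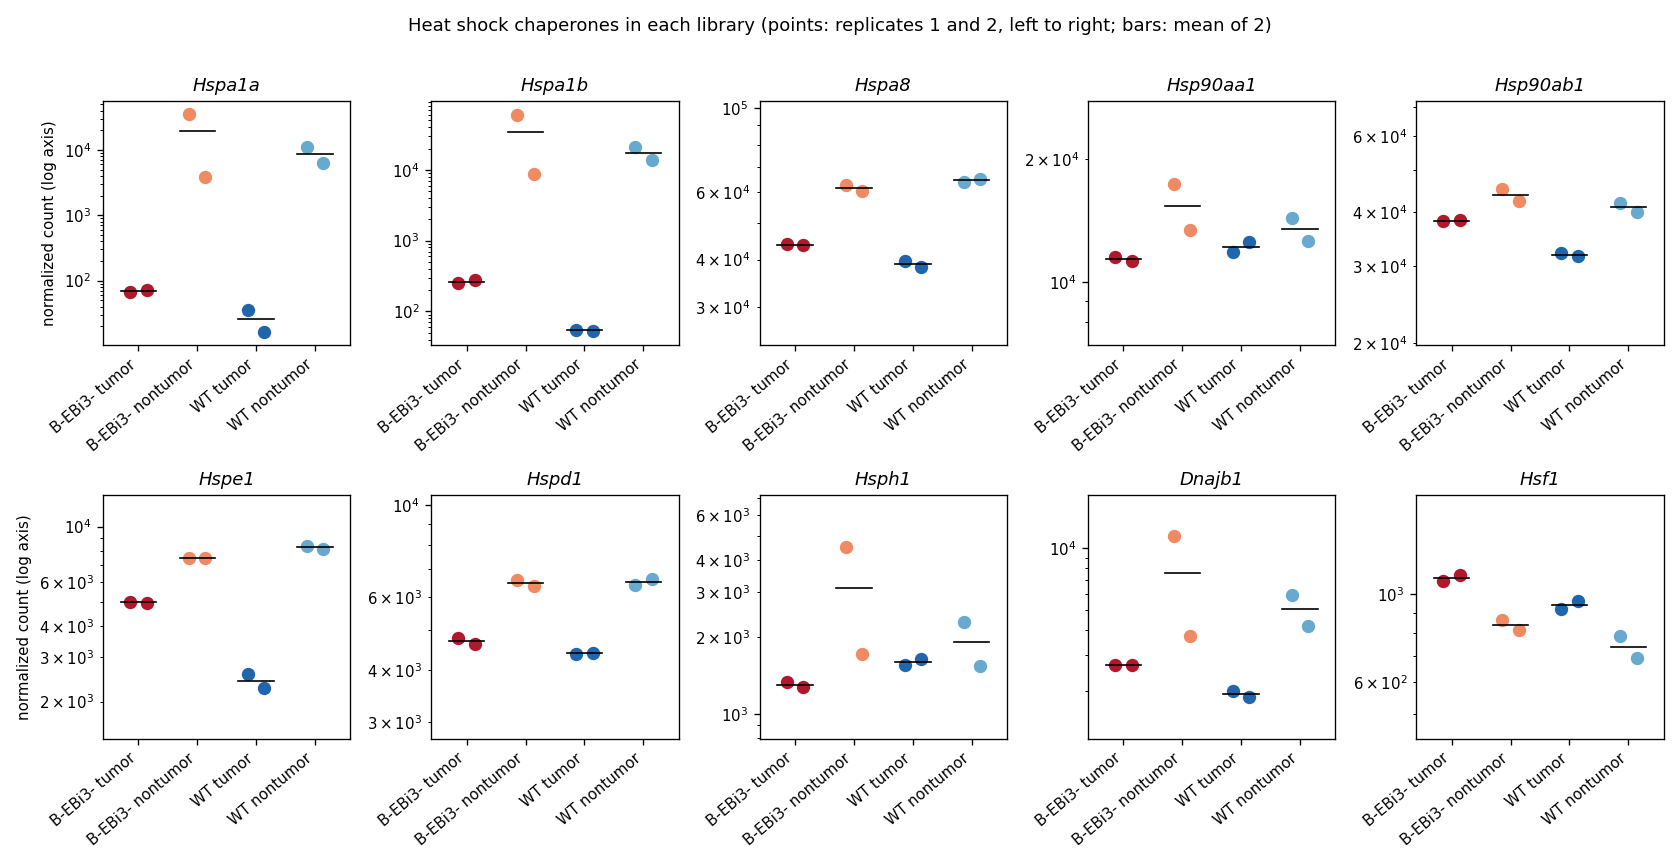
Normalized counts (log axes, each panel with its own range) of the 10 genes in the 8 libraries, grouped by genotype and tumor status; points are libraries and bars are means of 2. Hspa1a and Hspa1b are the genes whose panels span orders of magnitude, and Hsf1 is the gene that lies higher in both tumor groups than in their nontumor groups.

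Per kilobase of transcript, the inducible pair made up a variable part of cytosolic HSP70 RNA. The ratio of Hspa1a plus Hspa1b to Hspa8 was 0.00608 and 0.00673 in B-EBi3- tumor, against 1.26 and 0.176 in B-EBi3- nontumor. In WT tumor it was 0.00189 and 0.00154, against 0.42 and 0.258 in WT nontumor. In B-EBi3- nontumor replicate 1 the inducible pair thus exceeded the constitutive gene, whereas in the 4 tumor libraries the ratio was at most 0.00673.

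Hspa8, the constitutive HSP70 that acts on clathrin coats and on nascent chains, fell far less. Its level was 43974 and 43585 normalized counts in B-EBi3- tumor, against 62853 and 60581 in B-EBi3- nontumor. WT tumor had 39709 and 38224, against 63909 and 65263 in WT nontumor. Libraries of a group lay close together, and tumor and nontumor groups did not overlap. The fitted log2 difference was -0.50 (SE 0.08, adjusted p = 0.00402) in B-EBi3- and -0.73 (SE 0.08, adjusted p = 3.95e-05) in WT, values that came to -0.07 in B-EBi3-, not past the threshold, and turned to 0.63 in WT under quantile normalization. With either B-EBi3- tumor library left out (-0.50 without replicate 1, -0.49 without replicate 2) or both averaged as 1 sample, the value in B-EBi3- was not past the threshold.

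Dnajb1 encodes an HSP40 protein that delivers clients to HSP70 and starts its ATP cycle. It held 2693 and 2705 normalized counts in B-EBi3- tumor, against 11474 and 3722 in B-EBi3- nontumor. In WT tumor it held 1998 and 1873, against 5944 and 4188 in WT nontumor. All 4 tumor libraries lay below all 4 nontumor libraries. The fall was 1.28 on the log2 scale (SE 0.41, adjusted p = 0.045) in B-EBi3- and 1.37 (SE 0.41, adjusted p = 0.0135) in WT. The call in B-EBi3- ended in 13 of 25 alternatives, among them leaving out B-EBi3- nontumor replicate 1, where the fall was 0.46. The call in WT ended in 3 of 25, among them leaving out WT nontumor replicate 1 (fall of 1.11) and WT tumor replicate 2 (1.32).

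Hsph1, an HSP110-type protein that releases ADP from HSP70, did not pass the threshold in either genotype. It stood at 1326 and 1274 normalized counts in B-EBi3- tumor, against 4529 and 1709 in B-EBi3- nontumor (log2 difference -1.10, SE 0.37, adjusted p = 0.0511). WT tumor had 1548 and 1645, against 2292 and 1538 in WT nontumor (-0.23, SE 0.37, adjusted p = 0.577). The groups overlapped in WT and not in B-EBi3-. In B-EBi3- the value passed in 9 of 25 alternatives, including the one without B-EBi3- nontumor replicate 2 (-1.80), and stood at -0.40 without replicate 1, not past the threshold.

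The HSP90 genes moved little. Hsp90aa1, the inducible form, had 11540 and 11245 normalized counts in B-EBi3- tumor, against 17325 and 13421 in B-EBi3- nontumor (log2 difference -0.42, SE 0.12, adjusted p = 0.0307). In WT tumor it had 11875 and 12556, against 14327 and 12571 in WT nontumor (-0.14, SE 0.12, adjusted p = 0.318). The WT groups were almost in contact, and their difference was past the threshold at -0.32 with the length and GC dependence taken out, while the call in B-EBi3- ended in 8 of 25 alternatives. One of these left out B-EBi3- nontumor replicate 1 and gave -0.24.

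Hsp90ab1, the constitutive HSP90 that stabilizes kinases and steroid receptors, had 38199 and 38346 normalized counts in B-EBi3- tumor, against 45172 and 42487 in B-EBi3- nontumor (log2 difference -0.20, SE 0.08, adjusted p = 0.0854). WT tumor had 32208 and 31639, against 41999 and 40144 in WT nontumor. In WT its fall was 0.36 on the log2 scale (SE 0.08, adjusted p = 0.00237), a direction that turned to 0.85 under quantile normalization, where the B-EBi3- value was 0.15. The libraries of the 4 groups did not overlap between tumor and nontumor in either genotype.

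Hspe1 and Hspd1 lie head to head on chromosome 1 (mm10, chr1:55088132-55091307 on the plus strand and chr1:55077835-55088243 on the minus strand). A run of heat shock units that starts 89 bases before the Hspe1 start is shown because it holds 3 overlapping matches. It lies in RefSeq's GRCm38.p6 window for both genes and inside an annotated Hspd1 exon (plus strand, chr1:55088053-55088082). Capitals mark the overlapping matches to TTCNNGAA and GAANNTTC.
Hspe1: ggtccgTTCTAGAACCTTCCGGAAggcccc
Read from the other strand, the same letters start 144 bases before one of the annotated Hspd1 starts.

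Hspd1 held 4769 and 4615 normalized counts in B-EBi3- tumor, against 6609 and 6376 in B-EBi3- nontumor. In WT tumor it held 4371 and 4404, against 6410 and 6618 in WT nontumor. Tumor libraries lay below nontumor ones in both genotypes, and the genotypes lay close together. The log2 difference was -0.47 (SE 0.06, adjusted p = 0.00174) in B-EBi3- and -0.57 (SE 0.06, adjusted p = 4.4e-05) in WT, calls that held in all 25 alternatives.

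Hspe1 held 5018 and 4967 normalized counts in B-EBi3- tumor, against 7523 and 7470 in B-EBi3- nontumor. WT tumor held 2571 and 2270, against 8394 and 8116 in WT nontumor. The WT tumor libraries were the lowest by a wide margin. The log2 difference was -0.59 (SE 0.08, adjusted p = 0.0013) in B-EBi3- and -1.77 (SE 0.08, adjusted p = 3.76e-07) in WT. Per kilobase, Hspe1 exceeded Hspd1 by 3.29 and 3.37 times in B-EBi3- tumor and 3.56 and 3.67 times in B-EBi3- nontumor. The ratio was 1.84 and 1.61 in WT tumor, against 4.1 and 3.84 in WT nontumor. The Hspe1 transcript is short, at 774 bases against 2423 for Hspd1, and with the dependence on length and GC content taken out of each library, the Hspe1 value was -0.38 in B-EBi3- and -0.70 in WT, past the threshold in both. Treated in the same way, Hspd1 stood at -0.47 in B-EBi3- and at -0.57 in WT, and a difference between the genes was not tested.

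Hsf1, which encodes the factor that drives heat shock genes, was the member that rose. It stood at 1081 and 1116 normalized counts in B-EBi3- tumor, against 859.9 and 815.0 in B-EBi3- nontumor. WT tumor had 917.9 and 961.1, against 783.7 and 691.4 in WT nontumor. Tumor libraries were higher without overlap in both genotypes, a trait whose share over all tested genes was not counted. The rise on the log2 scale was 0.39 (SE 0.09, adjusted p = 0.0146) in B-EBi3- and 0.35 (SE 0.09, adjusted p = 0.00541) in WT. The call in B-EBi3- ended in 4 of 25 alternatives, which left out B-EBi3- tumor replicate 1 (0.42) or 2 (0.37), left out B-EBi3- nontumor replicate 2 (0.35) or averaged the B-EBi3- tumor libraries (0.39). The value in WT was 0.79 with the length and GC dependence taken out.

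In all, the tumor effect in B-EBi3- had 7 of 10 members lower and 1 higher, with a median of -0.54 over the members and -0.01 over all tested genes. Of all tested genes, 18.5% were called lower and 14.1% higher in that comparison. With the B-EBi3- tumor libraries averaged as 1 sample, fewer members and fewer of all tested genes were called, with a member median of -0.54. Leaving out B-EBi3- tumor replicate 1 or 2 also left fewer members called, at medians of -0.55 and -0.53. The tumor effect in WT likewise had 7 members lower and 1 higher, with a median of -0.65 against 0.01 over all tested genes. In WT, 40.1% of tested genes were lower and 39.6% higher, so a call there is common.

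**Figure D3:**
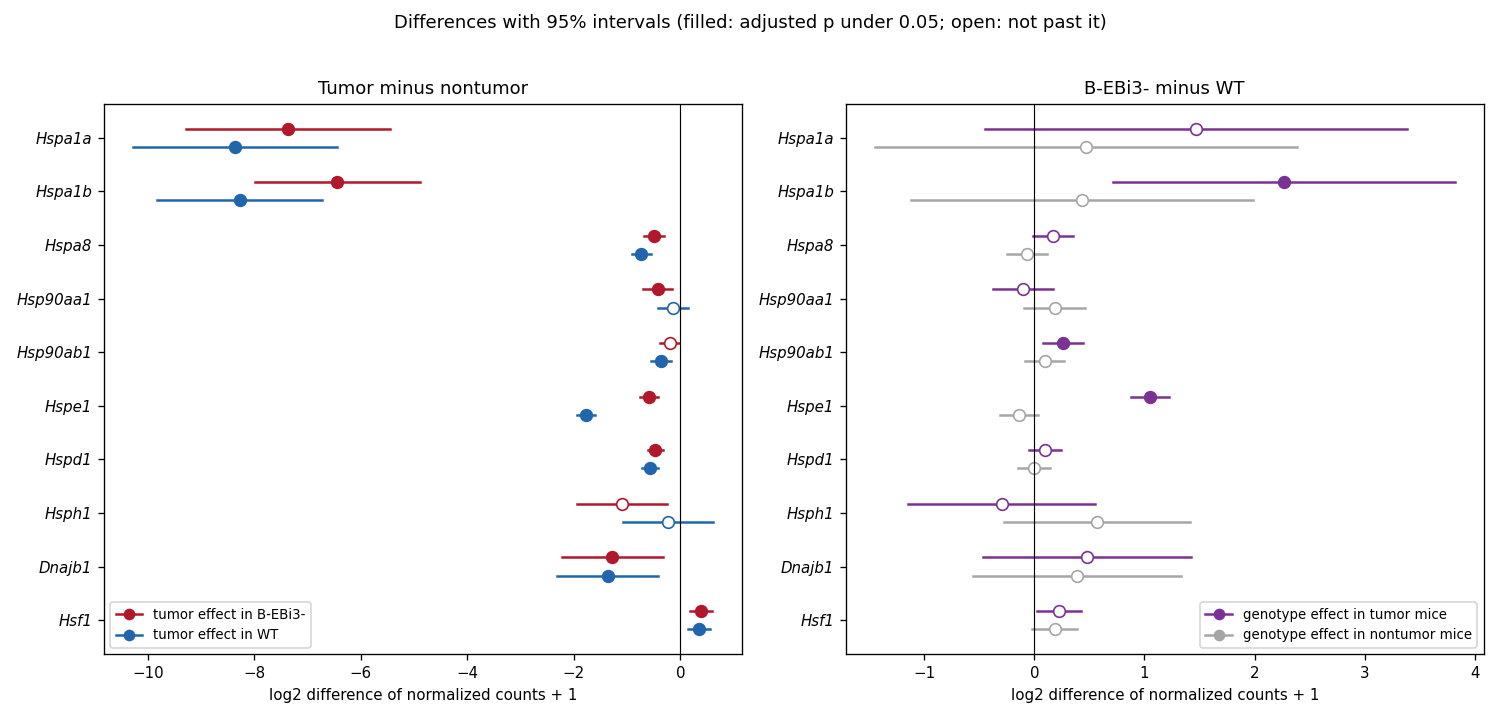
Log2 differences of the 10 genes with 95% intervals, tumor minus nontumor in each genotype (left) and B-EBi3- minus WT in tumor and in nontumor mice (right); filled points are past an adjusted p of 0.05. Hspa1a and Hspa1b lie between -8.37 and -6.44 on the left. On the right, the tumor-mouse intervals of Hspe1 (at 1.05), Hspa1b, Hsp90ab1 and Hsf1 exclude 0, and Hsf1 is not past the adjusted threshold.

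The genotype effect in tumor mice compared B-EBi3- with WT when a tumor was present. It had 3 of 10 members higher, against 31.9% of all tested genes, and 0 lower, against 28.6%. Hspe1 was 2.07-fold higher in B-EBi3- tumor (log2 difference 1.05, SE 0.08, adjusted p = 2.18e-05), Hspa1b 4.81-fold (2.27, SE 0.68, adjusted p = 0.0184) and Hsp90ab1 1.2-fold (0.26, SE 0.08, adjusted p = 0.0187). The Hspa1b call ended in 9 of 25 alternatives, leaving out any of the 4 tumor libraries among them (2.20 to 2.34), and the Hsp90ab1 call ended in 5, while its direction turned to -0.56 under quantile normalization. Summed, Hspa1a and Hspa1b were 2.05 higher on the log2 scale (SE 0.73, adjusted p = 0.0361), a call that ended in 13 of 25. Removal of the length and GC trend brought the Hspe1 value to 0.30, still past the threshold. Dnajb1 stood at 0.48 (adjusted p = 0.337), Hsph1 at -0.30 (adjusted p = 0.509), Hspd1 at 0.10 (adjusted p = 0.219) and Hsp90aa1 at -0.10 (adjusted p = 0.49). The Dnajb1 value passed in 3 of 25 alternatives, one of them with only the groups compared, and the Hsph1 and Hspd1 values in 1 each. Hspa1a was at 1.47 (adjusted p = 0.16, 95% interval -0.45 to 3.39), and Hsf1 at 0.23 (adjusted p = 0.0529), which passed in 12 of 25 alternatives and turned to -0.13, not past the threshold, with the length and GC dependence taken out. The Hspa1a value passed in 4 of 25, at 1.47 each time. These were array weights, only the groups compared, and leaving out B-EBi3- nontumor replicate 1 or 2. The main fit pools the spread of all 4 groups. The Hspa1a interval here thus also takes in the spread of B-EBi3- nontumor, a group outside this comparison. Hspa8 stood at 0.17 (adjusted p = 0.0996), passed as higher under upper-quartile scaling (0.23) and with array weights (0.17), and passed as lower under quantile normalization (-0.64).

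In nontumor mice no member differed by genotype at the threshold, nor did any other gene: 0% of tested genes were higher and 0% lower by limma. At an unadjusted p under 0.05 limma had 1049 genes, edgeR 1016 and DESeq2 654, of which 21 were past the adjusted threshold by DESeq2 and 0 by edgeR, and 0 members were among any of these. The 95% interval was narrow for Hspd1 (-0.15 to 0.14), Hspa8 (-0.25 to 0.12) and Hspe1 (-0.31 to 0.03). It was wide for Hspa1a (-1.45 to 2.39), Hspa1b (-1.12 to 1.98) and Dnajb1 (-0.55 to 1.33), whose B-EBi3- nontumor libraries lie on both sides of those of WT nontumor. Leaving out B-EBi3- nontumor replicate 1 moved Hspa1a to -1.14, and leaving out replicate 2 moved it to 2.08.

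The interaction asked whether the tumor effect in B-EBi3- differed from that in WT. Only Hspe1 passed among the 10 members (1.19, SE 0.11, adjusted p = 0.000154), with 27.5% of all tested genes called higher, and 0 members were lower, against 25.4%. Hspe1 fell in both genotypes, by 0.59 in B-EBi3- and by 1.77 in WT, and its interaction stood at 0.33, still past the threshold, with the length and GC dependence taken out. For the other members the intervals were wide or near 0: -1.71 to 3.71 for Hspa1a, -0.36 to 4.03 for Hspa1b, -1.24 to 1.43 for Dnajb1, -0.03 to 0.49 for Hspa8 and -0.11 to 0.31 for Hspd1. The high B-EBi3- nontumor replicate 1 decided several of these. Without it the interaction passed for Hspa1a (2.61), Hspa1b (3.21) and Dnajb1 (0.90), and without replicate 2 it passed at the opposite sign for Dnajb1 (-0.72) and passed for Hsp90aa1 (-0.47) and Hsph1 (-1.57). Under quantile normalization Hspa8 and Hsp90ab1 passed at -0.70 each.

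Levels per kilobase of transcript put the members in order. In B-EBi3- tumor the order was Hspa8, Hsp90ab1, Hspe1, Hsp90aa1, Hspd1, Dnajb1, Hsf1, Hsph1, Hspa1b and Hspa1a, from a mean of 18287 down to 23.3 normalized counts per kilobase, and no neighbours overlapped. In B-EBi3- nontumor Hspa8 led again at 25780, and Hspa1b at 3161 and 21170 spanned the levels of Hsp90ab1, Hspe1 and Hsp90aa1 and overlapped those of Hspa1a at 1281 and 11958. In WT tumor Hspa8 led at 16277 and Hspa1a was last at 8.81, with Hsp90aa1 ahead of Hspe1. In WT nontumor Hspa8 led at 26978, Hspa1b followed Hspe1 at 6200, Hspa1a at 2149 and 3717 overlapped Hspd1 at 2646 and 2731, and Hsf1 was last at 350.5. Together the 10 genes took 0.442% and 0.44% of reads in B-EBi3- tumor, against 0.923% and 0.524% in B-EBi3- nontumor, and 0.438% in both WT tumor libraries, against 0.604% and 0.533% in WT nontumor.

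Other chaperone genes were read from 8 lists with 79 genes, of which 71 were tested. In the tumor effect in B-EBi3-, 19 were lower and 2 higher, with a median of -0.17, while 18.5% of all tested genes were lower and 14.1% higher. In WT, 43 were lower and 11 higher, with a median of -0.56, while 40.1% of all tested genes were lower and 39.6% higher. The cytosolic chaperonin CCT, the barrel that folds actin and tubulin, had 4 of 8 subunits lower in B-EBi3- (median -0.28) and 8 of 8 in WT (-0.82). Cct7, for example, held 6459 and 6593 normalized counts in B-EBi3- tumor against 7794 and 8527 in B-EBi3- nontumor (adjusted p = 0.0227), and 4532 and 4140 in WT tumor against 8545 and 9434 in WT nontumor (adjusted p = 6.31e-06). Prefoldin, which hands nascent actin and tubulin to CCT, had 4 of 6 subunits lower in B-EBi3- (median -0.37) and 6 of 6 in WT (-1.04). Pfdn5 stood at -0.40 in B-EBi3- and at -1.95 in WT.

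HSP70 co-chaperones had 5 of 17 lower and 2 higher in B-EBi3- (median -0.15), and 9 lower and 2 higher in WT (-0.37). Summed, however, the list took a larger share of reads in tumor libraries, at 0.13% to 0.132% in B-EBi3- tumor against 0.119% to 0.128% in B-EBi3- nontumor, and 0.142% to 0.144% in WT tumor against 0.114% to 0.119% in WT nontumor. The HSP40-type gene Dnaja4 held 80.9 and 72.4 normalized counts in B-EBi3- tumor, against 253.0 and 225.4 in B-EBi3- nontumor, and 29.4 and 27.5 in WT tumor, against 176.6 and 216.7 in WT nontumor. Its log2 difference was -1.63 (adjusted p = 0.000504) in B-EBi3- and -2.74 (adjusted p = 2.23e-06) in WT. Bag2, which regulates nucleotide exchange on HSP70, stood at -1.81 (adjusted p = 0.00252) in B-EBi3- and at -2.54 (adjusted p = 2.87e-05) in WT. For Dnaja4 the B-EBi3- nontumor libraries lay close together, which they did not for Hspa1a. HSP90 co-chaperones had 3 of 15 lower and 0 higher in B-EBi3- (median -0.15), among them the kinase adaptor Cdc37 at -0.29 and the ATPase activator Ahsa1 at -0.32. In WT 8 were lower and 2 higher (-0.30), with Cdc37 at -1.04.

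Mitochondrial chaperones and proteases had 2 of 11 lower in B-EBi3- (Dnajc19 at -0.38 and Hscb at -0.39, median of the list -0.11), and 7 lower and 2 higher in WT (median -0.32). For this list and for the HSP90 co-chaperones, the count in B-EBi3- is near the 18.5% of all tested genes. Summed, the mitochondrial list took 0.0774% to 0.0776% of reads in B-EBi3- tumor against 0.0726% to 0.0734% in B-EBi3- nontumor, and 0.0807% to 0.0832% in WT tumor against 0.0719% to 0.074% in WT nontumor, again a larger share in tumor libraries. The remaining HSP70 and HSP110 genes had 0 of 7 called in B-EBi3- (median -0.05), and 4 higher and 1 lower in WT (0.21). Of 9 small heat shock proteins 3 were tested, and Hspb1, which holds unfolded proteins in solution, was called lower in both genotypes (adjusted p = 0.0244 in B-EBi3- and 0.00494 in WT). It stood at 5.22 and 10.1 normalized counts in B-EBi3- tumor against 192.9 and 24.2 in B-EBi3- nontumor, and at 1.59 and 1.57 in WT tumor against 22.4 and 26.1 in WT nontumor, with B-EBi3- nontumor replicate 1 again the highest. Its tumor values are near the floor, and it reached the mean of 10 through its nontumor libraries, so the size of these falls is uncertain. Of the 3 tested, 1 was lower in B-EBi3- and 3 were lower in WT. Among 4 heat shock factor genes and partners 0 were called in B-EBi3- (median 0.30), and Hsf2 was higher (0.59) and Hsbp1, whose product binds HSF1, lower (-1.09) in WT, where the list's median was -0.09.

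In the genotype effect in tumor mice 36 of the 71 genes were higher and 3 lower (median 0.26), while 31.9% of all tested genes were higher and 28.6% lower. The 36 included 8 of 8 CCT subunits and 6 of 6 prefoldin subunits. In nontumor mice 0 were called (median -0.05). The interaction was past the threshold for 33 higher and 1 lower (median 0.35), while 27.5% of all tested genes were higher and 25.4% lower. It was higher for 8 of 8 CCT subunits (median 0.55) and 6 of 6 prefoldin subunits (0.75).

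**Figure D4:**
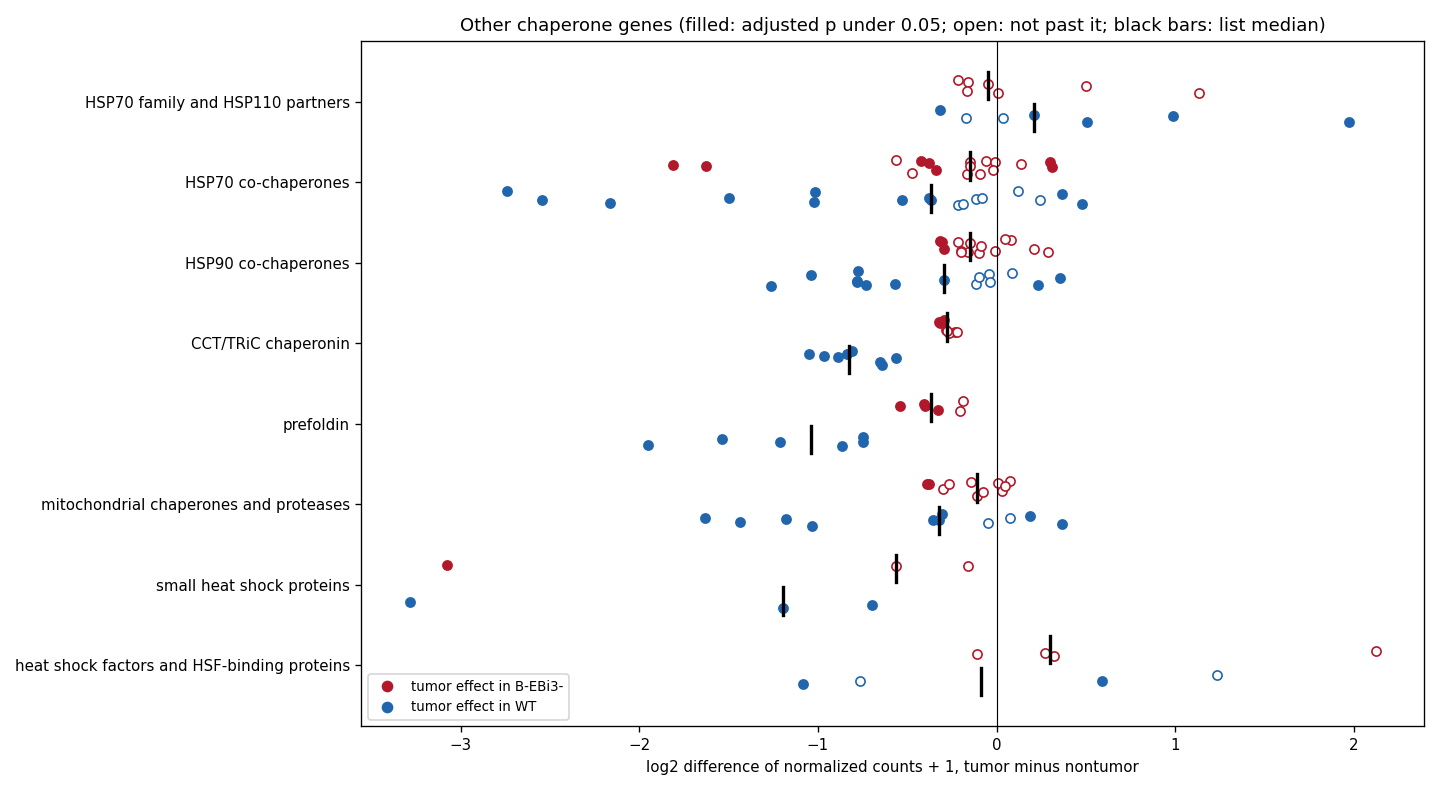
Log2 difference, tumor minus nontumor, of each tested gene in 8 lists of other chaperone genes (rows), for B-EBi3- (red, upper) and WT (blue, lower); filled points are past an adjusted p of 0.05 and black bars are list medians. All CCT and prefoldin genes lie left of 0 in both genotypes, and farther left in WT, where their medians are -0.82 and -1.04.

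Macrophage and erythroid markers and ribosomal protein genes were lower in tumor libraries of both genotypes, as were granulocyte markers. Monocyte and macrophage markers took 0.371% to 0.373% of reads in B-EBi3- tumor, against 0.569% to 0.712% in B-EBi3- nontumor, and 0.0718% to 0.082% in WT tumor, against 0.644% to 0.708% in WT nontumor. Of these 14 markers 13 were lower in B-EBi3- (median -0.97) and 14 in WT (-3.64). Beside these and the following marker counts, 18.5% of all tested genes were lower and 14.1% higher in B-EBi3-. In WT 40.1% were lower and 39.6% higher. Erythroid markers took 0.286% to 0.294% in B-EBi3- tumor, against 1.03% to 1.52% in B-EBi3- nontumor, and 0.0873% to 0.117% in WT tumor, against 0.586% to 0.644% in WT nontumor. All 11 that were tested fell in both genotypes (median -2.71 in B-EBi3- and -3.82 in WT). Within B-EBi3- nontumor both shares were lower in replicate 1 than in replicate 2, and no defining marker of either type was at 0 in any library. Granulocyte markers took 0.00389% to 0.00394% of reads in B-EBi3- tumor against 0.0172% in B-EBi3- nontumor, and 0.00269% to 0.003% in WT tumor against 0.00845% to 0.0207% in WT nontumor. Of these 12 markers 8 were lower and 0 higher in B-EBi3- (median -2.02), and 11 were lower and 1 higher in WT (-4.11). In B-EBi3- 1 of 12 T cell markers was lower and 1 higher (median 0.36), and 0 of 8 NK cell markers (0.35) and 0 of 8 platelet markers (-0.11) were called. In WT 8 of 12 T cell markers were lower (median -1.13), as were 7 of 8 NK cell markers (-1.40) and 7 of 8 platelet markers (-2.18). The part of these cells in the chaperone results was not tested.

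Immediate early genes, which respond quickly to stimulation, took 0.382% to 0.386% of reads in B-EBi3- tumor, against 0.281% to 0.414% in B-EBi3- nontumor, and 0.249% to 0.262% in WT tumor, against 0.292% to 0.348% in WT nontumor. In B-EBi3- 2 of 17 were lower and 2 higher (median 0.01), while in WT 11 were lower and 2 higher (-1.08). For this and the next lists, 18.5% of all tested genes were lower and 14.1% higher in B-EBi3-. In WT the shares were 40.1% and 39.6%. Cytosolic ribosomal protein genes took 8.0% to 8.06% in B-EBi3- tumor, against 9.5% to 9.74% in B-EBi3- nontumor, and 3.97% to 4.59% in WT tumor, against 10.5% to 10.7% in WT nontumor. Of 32 tested, 27 were lower in B-EBi3- (median -0.43) and 32 in WT (-1.83), and the interaction was higher for 32 (1.39), the direction of Hspe1. Nuclear retained RNAs, a list of 7 that includes Xist, took 0.0903% to 0.091% of reads in B-EBi3- tumor against 0.0388% to 0.0599% in B-EBi3- nontumor, and 0.276% to 0.347% in WT tumor against 0.0321% to 0.0453% in WT nontumor. In B-EBi3- 2 were higher and 0 lower (median 0.67), and in WT 5 were higher and 1 lower (3.16). The part of these lists in the chaperone results was not tested.

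**Figure D5:**
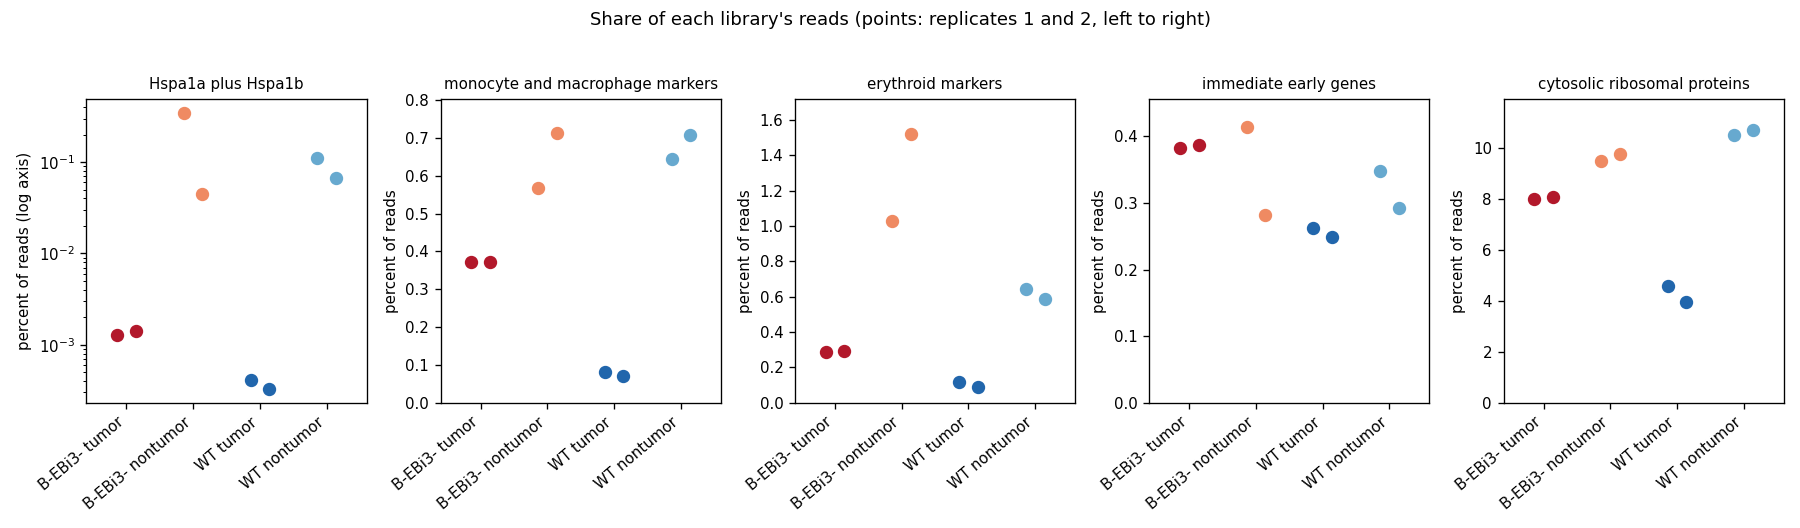
Percent of each library's reads taken by Hspa1a plus Hspa1b (log axis) and by marker lists (linear axes from 0), by group; points are libraries. The inducible pair and the macrophage, erythroid and ribosomal lists are lower in tumor than in nontumor groups of both genotypes, while the immediate early genes of B-EBi3- tumor, at 0.382% to 0.386%, lie within the range of B-EBi3- nontumor.

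Over the 8 libraries, the log2 levels of the members are compared by Pearson correlation, as descriptions, since the libraries share the group differences. Hspa1a followed Hspa1b (r = 0.994), Hspa8 followed Hspd1 (0.994), and Hsp90aa1 followed Hsph1 (0.977), whereas Hsph1 and Hspe1 were weakly related (0.385). Hsf1 had a negative r with every other member, from -0.799 with Hspd1 to -0.359 with Hsph1. Among 10780 other genes the patterns most like Hspa1a were those of Cxcr7 (r = 0.997), Nfyc (0.994), Fam210b (0.99), Stx2 (0.989), Sox6 (0.989), Dlst (0.988), Fhdc1 (0.988) and Rhag (0.987). Of these, Rhag held 80.0 and 83.4 normalized counts in B-EBi3- tumor against 1137 and 887.6 in B-EBi3- nontumor, and Cxcr7 held 239.2 and 229.1 against 412.7 and 326.0. The patterns most like Hspd1 were those of Ptdss2 (r = 0.997), Gfap (0.997), Ccna2 (0.996), Rrm2 (0.996), Ermap (0.996), Tk1 (0.996), Mybl2 (0.996) and Mcm2 (0.995), over the same 8 libraries.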

How the data were processed

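RNA of naive B cells was sequenced after stranded mRNA library preparation, per the labels' protocols. Per the submitters' processing notes, Salmon and DESeq2 were used with mm10; no versions are recorded there. The authors deposited DESeq2-normalized counts (signal), 1 value per gene symbol and library. Dividing each library by its step gave whole numbers for 100% of values within 0.01, so reads were recovered; Salmon's own estimates need not be whole. Of 23302 entries, 5065 were at 0 throughout and 27 carried date names. Genes with a mean of at least 10 were tested (13011).

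The test was limma (3.58.1, R 4.3.3) on log2(normalized count + 1), with 1 mean per group, a trended prior variance, 4 residual and 4.64 prior degrees of freedom, two-sided tests and Benjamini-Hochberg adjustment over all tested genes, with a threshold of 0.05. Fold changes are on that scale and understate those of low genes. Errors of log2 differences are standard errors, and percentages of reads are recovered reads over library totals. Alternatives used edgeR 4.0.16 and DESeq2 1.42.0 on recovered reads, among others. The fit was tested on simulated data. Depth was 21291892 to 28297319 reads per library, and each group has 2 libraries, which limits precision. The B-EBi3- tumor libraries lay closer than other pairs (chi-square per degree of freedom 2.01, against 13.14 to 20.3) but differed by more than sampling noise and were kept as 2.

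Positions and transcript lengths are from GENCODE on GRCm38 (mm10), and promoter windows of 300 bases from RefSeq. Members, lists and tests were chosen with earlier results of these data known. All 10 members were tested in every comparison. Members without a value in the text of a comparison were not past the threshold there in the main fit. From the other chaperone lists, up to 3 genes with the smallest p in a comparison may be named. For Hspa1a and Hspd1, the 8 genes with the highest correlation are named. H2-Ke2 stands for Pfdn6 in the table.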

Additional observations from a re-analysis of the deposited data

Results flagged for a closer look

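For Hspe1, the lid of the mitochondrial chaperonin, the tumor effect differed between the genotypes by a test of that difference (1.19 on the log2 scale, limma adjusted p = 0.000154). It fell by 0.59 in B-EBi3- and by 1.77 in WT, with all 4 tumor libraries below all 4 nontumor ones. The value ranged from 0.33 to 1.28 over 24 alternatives and was past the threshold in each. The lowest, 0.33, was the value with the length and GC dependence taken out. Of all tested genes, 27.5% were called higher in that test and 25.4% lower, so a call there is common. The WT tumor libraries differ from all others in sex and title prefix, which cannot be told apart from the tumor effect in WT.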

How the results depend on the processing

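The falls of Hspa1a, Hspa1b, Hspd1 and Hspe1 with tumor held their call in all 25 alternatives in both genotypes. Quantile normalization turned Hspa8 and Hsp90ab1 round: they stood at 0.63 and 0.85 in the tumor effect in WT (3 members higher there), at -0.64 and -0.56 in the genotype effect in tumor mice (2 members lower), and at -0.70 and -0.70 in the interaction (2 members lower). The cause was not tested. With the B-EBi3- tumor libraries averaged as 1 sample, the tumor effect in B-EBi3- had 4 members lower and 0 higher, in a fit with fewer samples. In that comparison the count over all genes also moved: averaging gave 653 lower and 80 higher, against 2401 and 1841. Over all alternatives the all-gene counts ranged from 653 to 2969 lower and 80 to 2543 higher there, 0 to 10 lower and 0 to 11 higher in the genotype effect in nontumor mice, 2408 to 4821 lower in the genotype effect in tumor mice, and 2124 to 3735 lower in the interaction.

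Members higher in the genotype effect in tumor mice numbered 3 in the main fit, 5 under upper-quartile scaling, 6 with array weights and 6 with only the groups compared (1 lower). They were fewer with the B-EBi3- tumor libraries averaged. Over all alternatives 3114 to 4890 of all tested genes were higher in that comparison, against 4151 in the main fit. The sum of Hspa1a and Hspa1b in that comparison lost its call at 2.05 without a filter, without a trend and with robust moderation, at 2.05 with averaging, at 1.85 with the length and GC trend removed, at 2.06 by edgeR and at 2.05 by DESeq2. Title numbers are shared by the WT groups alone and pair no samples by the labels (r of same-numbered deviations -0.256). With the replicate block that comparison had 1 member higher and a sum of 1.79, and with the crossed pairing the sum was 2.13, not past the threshold either time.

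Leaving out each library in turn gave 4 to 8 members lower and 0 to 1 higher in the tumor effect in B-EBi3-, and 1 to 6 higher in the genotype effect in tumor mice, where the sum ranged from 1.87 to 2.23. In the interaction Dnajb1 ranged from -0.72 to 0.90 and the sum from 0.15 to 3.06. Where 1 library remained in a group, it was assumed to vary like the others. Groups hold 2 libraries each, and the lowest member values rest on few reads: Hspa1a had 77 and 78 in B-EBi3- tumor and 45 and 21 in WT tumor, and Hspa1b had 68 in each WT tumor library.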

Other observations

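The ratio of Hspa1b to Hspa1a, which depends on how shared reads were divided, was 3.73 and 3.86 in B-EBi3- tumor, against 1.67 and 2.33 in B-EBi3- nontumor, and 1.51 and 3.24 in WT tumor, against 1.91 and 2.15 in WT nontumor. Per kilobase, Hsp90aa1 stood at 0.232 and 0.225 of Hsp90ab1 in B-EBi3- tumor, against 0.295 and 0.243 in B-EBi3- nontumor. In WT tumor the ratio was 0.283 and 0.305, against 0.262 and 0.241 in WT nontumor.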
